A study of Mus musculus with 36 samples.

Results

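Gene silencing on the inactive X chromosome (Xi) was followed from 24 h of Xist induction to day 5 of differentiation in 3 mouse embryonic stem cell lines, using 9 of the 36 samples of the series. Each line contributed 1 library at 24 h and 2 at day 5. All 3 lines derive from iXist-ChrX, a female hybrid line with a 129S and a Cast X chromosome. Dox turns on Xist on the 129S copy through an engineered TetOn promoter, so that this copy becomes the Xi while the Cast copy stays active (Xa). The Halo-SMCHD1 line (clone G2) carries a Halo tag on the native SMCHD1 protein and an eGFP-CIZ1 transgene at Gt(ROSA)26Sor. The G137E (clone H4) and K518E (clone A4) lines carry, in addition, the named SMCHD1 substitution on both alleles. The 24 h cells were undifferentiated and received 1 µg/ml doxycycline (dox), whereas the day 5 cells were differentiated as a monolayer with dox present throughout. The length of Xist induction and differentiation therefore cannot be told apart. Each line is 1 clone, and per the study's methods the libraries of a line are independent repeats of that clone. Gene-by-gene p-values over the 3 lines reflect the spread of day 5 repeats and how the change differs between the 3 clones. No line has a repeat at 24 h. P-values for line differences reflect only day 5 repeats of 1 clone per line, not the spread between clones.

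Xist is a long non-coding RNA that coats the chromosome it is transcribed from and brings about silencing of most of its genes. SMCHD1 is a non-canonical SMC protein with a GHKL ATPase domain and a hinge domain, and it accumulates on the Xi, where it contributes to long-term silencing. G137E and K518E were found in patients with Bosma arhinia microphthalmia syndrome. A group of genes known as escape genes continues to be transcribed from the Xi in many tissues.

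Chromatin-associated RNA was sequenced (ChrRNA-seq), which enriches nascent transcripts, and the values analysed are the allelic fraction of each gene, Xi/(Xi+Xa). A fraction near 0.5 stands for equal output of both chromosomes and 0 for no reads assigned to the Xi. The fraction is relative, and a fall could also come from more Xa transcript. The authors required a minimum of SNP-covering reads per gene across samples, which sets no minimum for a single library. The read depth behind each fraction is unknown, so a fraction listed at 0 has no stated detection limit. The table held 242 X-linked genes, all between 6047506 and 103484957 on the X chromosome (mm10), that is from the start of the table to Xist. Of these, 230 had a fraction of 0.25 to 0.75 in the uninduced library of all 3 lines and are called informative here. The table holds no autosomal genes or expression levels, so the differentiation state was not checked against marker genes.

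Between 24 h and day 5 the Xi fraction fell across the chromosome in all 3 lines. The median over the 242 genes was 0.516 in Halo-SMCHD1, 0.521 in G137E and 0.524 in K518E without dox. After 24 h it was 0.237, 0.278 and 0.212 in the same order. At day 5 it was 0.0688 and 0.0606 in Halo-SMCHD1, 0.0565 and 0.0758 in G137E, and 0.0371 and 0.0432 in K518E. Every day 5 library lay below every 24 h library, and both K518E libraries lay below the other 4 at day 5. The day 5 median was lower than the 24 h median by 0.185 on average over the lines (exact permutation test of the time labels within each line, two-sided, p = 0.037, the smallest that its 27 arrangements allow).

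**Figure D1:**
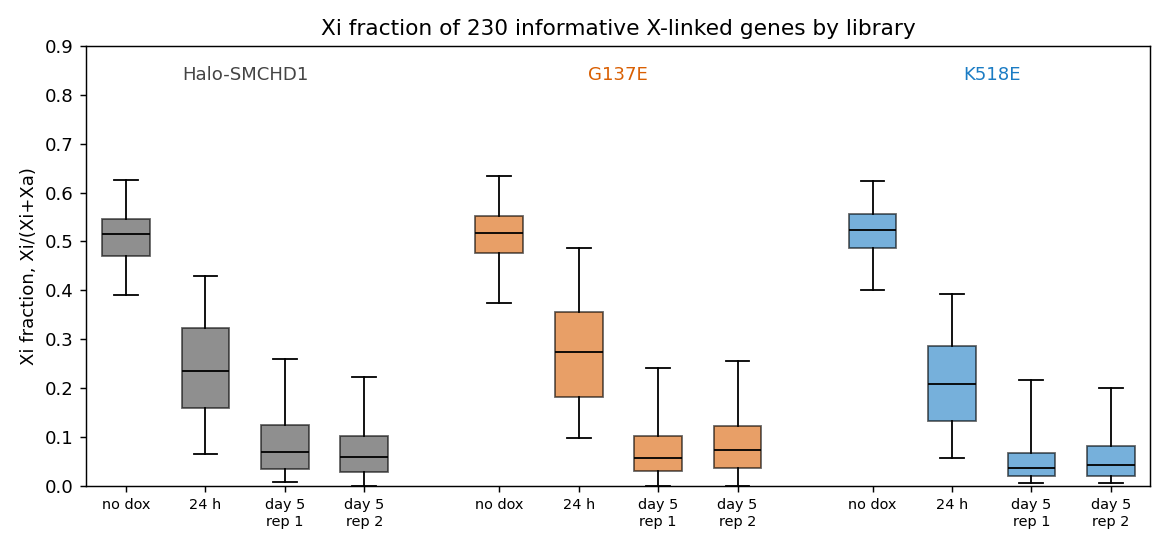
Xi fraction (vertical axis) of the 230 informative genes in each library of the 3 lines. Boxes show the quartiles, the line the median and the whiskers the 5 and 95 percentiles over genes. The boxes fall from about 0.5 without dox to medians of 0.209 to 0.274 at 24 h and 0.0367 to 0.0726 at day 5.

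The fall was tested gene by gene with limma on the log2 odds of the fraction, with line as a covariate. The fraction was lower at day 5 for 223 of the 242 genes (92.1% called, Benjamini-Hochberg adjusted p under 0.05) and higher for 1 gene (0.413% called). The median difference was -2.16 on the log2 odds scale. All 6 day 5 libraries lay below all 3 libraries at 24 h for 206 genes (85.1%). In each line alone, the same limma test called 92 genes lower in Halo-SMCHD1, 120 in G137E and 176 in K518E. These counts assume that the single 24 h library varies like the 2 at day 5, whose median difference between repeats was 0.0165, 0.0193 and 0.00861, and they do not measure how far the lines differ. Among informative genes, 13 did not pass in the combined fit, among them Wdr44, Slc25a5, Cul4b, Elf4, Hmgb3, Gabre, Nr0b1, Zxdb, Heph, Nono, 4930519F16Rik and Tsix.

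For the 229 informative genes whose fraction fell by more than 0.1 between the uninduced state and day 5, a median of 60.7% of that fall had taken place by 24 h. The values by line were 63.3% in Halo-SMCHD1, 55.8% in G137E and 65.8% in K518E. Genes differed widely around this median. Suv39h1 and Kdm6a had completed 0.54% and 20.1% of their fall by 24 h, whereas Firre had completed 90.9%. Rbm3, a cold-inducible RNA-binding protein, had completed 20.1%, with fractions of 0.413, 0.478 and 0.449 at 24 h and 0.0707 to 0.129 at day 5. Rbm3 was chosen after its values were seen.

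To separate genes that completed silencing from those that lagged, a gene was called silenced when its fraction was under 0.05 in all 6 day 5 libraries and still expressed when it was above 0.1 in all 6. By this description 52 of the 230 informative genes were silenced, 29 were still expressed and 149 lay between. The counts depend on the limits, and with 0.03 and 0.15 they were 19 and 15. Near the lower limit, Fam3a was just inside, with a highest value of 0.0488, and Usp11 just outside, with 0.0504. Near the upper limit, 4930519F16Rik was just inside, with a lowest value of 0.101, and Rpgr just outside, with 0.0981. The classes are defined from the day 5 values and carry no test.

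The classes already stood apart at 24 h. The median 24 h fraction, as a mean over the lines, was 0.147 for silenced genes, 0.249 for those between and 0.386 for those still expressed. Without dox the medians were close, at 0.505, 0.521 and 0.534. Over the 230 genes the 24 h and day 5 means had a Spearman correlation of 0.749, and within the lines it was 0.666 in Halo-SMCHD1, 0.700 in G137E and 0.725 in K518E. These correlations are descriptions across genes that share libraries. Of 18 genes under 0.1 at 24 h, 12 were silenced and none was still expressed at day 5. Of 16 genes above 0.4 at 24 h, none was silenced and 12 were still expressed.

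**Figure D2:**
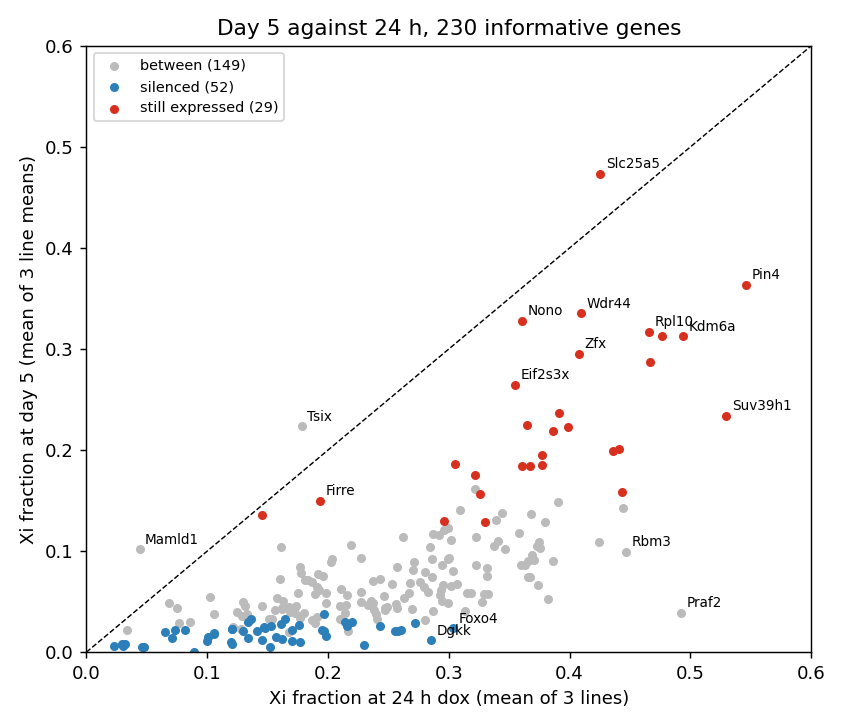
Mean Xi fraction at 24 h (horizontal axis) against day 5 (vertical axis) for the 230 informative genes, coloured by class; the dashed line marks no change. Most genes lie well below the line, while Slc25a5, Tsix and Mamld1 lie above it and Nono lies close to it.

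The 10 silenced genes with the largest fall in fraction reached day 5 means of 0.00722 to 0.0295. They were chosen by this fall in the same libraries. Their p-values and the lack of overlap between times therefore restate the choice and add no independent support. Foxo4, a forkhead transcription factor (X chromosome, 101254527 to 101260873), had 24 h fractions of 0.278 in Halo-SMCHD1, 0.500 in G137E and 0.133 in K518E. At day 5 it was at 0.022 and 0.0317, 0.0341 and 0.0377, and 0.00922 and 0.00957 in the same lines. The single 24 h libraries of the lines thus differed in level, and all day 5 libraries were under 0.04. The difference between times was -3.63 log2 odds (SE 0.25, limma adjusted p = 1.62e-05). Pola1, the catalytic subunit of DNA polymerase alpha (93304765 to 93632155), was at 0.225, 0.279 and 0.226 at 24 h. Its day 5 fractions were 0.033 and 0.0257 in Halo-SMCHD1, 0.0295 and 0.0287 in G137E, and 0.0199 and 0.0197 in K518E. Its day 5 values were tight and far from those at 24 h (-3.18 log2 odds, SE 0.14, limma adjusted p = 9.06e-06).

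Genes with a narrower 24 h range followed. G6pdx, the first enzyme of the pentose phosphate pathway, went from 0.284, 0.243 and 0.239 at 24 h to between 0.0087 and 0.0286 at day 5. Flna, an actin cross-linking protein, went from 0.225, 0.25 and 0.174 to between 0.0137 and 0.0413. Nsdhl, an enzyme of cholesterol synthesis, went from 0.239, 0.227 and 0.195 to between 0.0211 and 0.0403. No day 5 library overlapped a 24 h library for any of these genes. Tenm1, a teneurin, and the gene Fam3a fell from 24 h means of 0.261 and 0.258 to 0.0222 and 0.0214. Dgkk, a diacylglycerol kinase, and 1110012L19Rik ended lowest of the 10, at means of 0.0121 and 0.00722, with several libraries listed at 0.

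Among the 52 silenced genes, 51 were called lower at day 5 by limma, beside 92.1% of all genes. All day 5 libraries lay below those at 24 h for 49 of them, beside 85.1% of all genes. Both counts use the day 5 values that define the class. The exception to the call was Heph, which was already near 0 at 24 h.

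For the still expressed genes the median fall in fraction was 0.167, against 0.168 for all informative genes, but from a higher 24 h level, so that a median of 60.4% of the 24 h fraction remained, compared with 25.8% over all informative genes and 13.0% for silenced genes. The order of these shares follows from the day 5 limits that define the classes. Of the 29, 25 were called lower by limma, beside 92.1% of all genes. This call uses the same day 5 libraries as the class.

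Escape genes formed part of this class. All 5 measured of the 12 escape genes listed were still expressed at day 5, beside 12.6% of the informative genes. All 5 were called lower than at 24 h, beside 92.1% of all genes. Kdm6a, an H3K27 demethylase (18162666 to 18279358), was at 0.497, 0.505 and 0.481 at 24 h, close to its uninduced values of 0.533, 0.537 and 0.550. By day 5 it had reached 0.338 and 0.336 in Halo-SMCHD1, 0.324 and 0.326 in G137E, and 0.269 and 0.283 in K518E. Its main fall thus lay after 24 h (-1.08 log2 odds, SE 0.12, limma adjusted p = 0.000107). Ddx3x, an RNA helicase, went from 0.341, 0.411 and 0.331 to between 0.116 and 0.214. Utp14a, a ribosome biogenesis factor, went from 0.465, 0.525 and 0.439 to between 0.243 and 0.347.

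Eif2s3x and Firre changed less. Eif2s3x, a subunit of translation initiation factor eIF2, was at 0.329, 0.396 and 0.341 at 24 h and between 0.225 and 0.300 at day 5. Its call was lost without the G137E library at 24 h (limma adjusted p = 0.0653). Firre, a long non-coding RNA (50555743 to 50635258), had dropped from 0.645, 0.607 and 0.625 without dox to 0.191, 0.220 and 0.170 at 24 h. At day 5 it was at 0.169 and 0.167 in Halo-SMCHD1, 0.177 and 0.167 in G137E, and 0.113 and 0.107 in K518E. Within each line both day 5 libraries lay below the 24 h library, while across lines the times overlapped. The small difference of -0.44 log2 odds (SE 0.13) passed limma (adjusted p = 0.0138). That call was lost in 8 of 21 alternatives, over which the adjusted p ranged from 0.00235 to 0.336, among them the fits without the G137E (0.0503) or K518E (0.0813) library at 24 h. Firre thus combined an early fall with a level above 0.1 at day 5.

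Other still expressed genes are not on the escape list. Nono, a paraspeckle protein (101429650 to 101448593), had fallen from 0.592, 0.611 and 0.588 without dox to 0.361, 0.385 and 0.336 at 24 h. At day 5 it was at 0.361 and 0.306 in Halo-SMCHD1, 0.366 and 0.302 in G137E, and 0.320 and 0.313 in K518E. The times overlapped and the difference did not pass (-0.20 log2 odds, SE 0.15, limma adjusted p = 0.224). Suv39h1, an H3K9 methyltransferase (8061170 to 8074760), showed the opposite timing. It was at 0.529, 0.554 and 0.506 at 24 h, beside 0.525, 0.611 and 0.458 without dox, and between 0.191 and 0.282 at day 5 (-1.85 log2 odds, SE 0.15, limma adjusted p = 2.8e-05).

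Pin4, a peptidyl-prolyl isomerase, was at 0.652, 0.513 and 0.474 at 24 h and between 0.291 and 0.446 at day 5. Zfx, a zinc finger transcription factor, was at 0.426, 0.405 and 0.392 and then between 0.274 and 0.355. Both had fallen with no overlap between times. Rbmx2, a splicing factor, fell from 0.465, 0.439 and 0.496 to between 0.203 and 0.342, and Fundc1, a mitophagy receptor, from 0.355, 0.463 and 0.355 to between 0.148 and 0.321. For 3 genes the day 5 libraries scattered. Wdr44 was at 0.25 and 0.25 in Halo-SMCHD1, 0.200 and 0.391 in G137E, and 0.527 and 0.394 in K518E. Rpl10, a ribosomal protein gene, ranged from 0.224 to 0.559 at day 5 and Slc25a5, an ADP/ATP carrier gene (36795651 to 36798806), from 0.326 to 0.705. Rpl10 was called lower than at 24 h by limma, but the call was lost in 12 of 21 alternatives. The differences of Wdr44 and Slc25a5 did not pass. Both Rpl10 and Slc25a5 have closely similar copies elsewhere in the genome, so their fractions are uncertain. Whether these copies bear on the scatter was not tested.

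**Figure D3:**
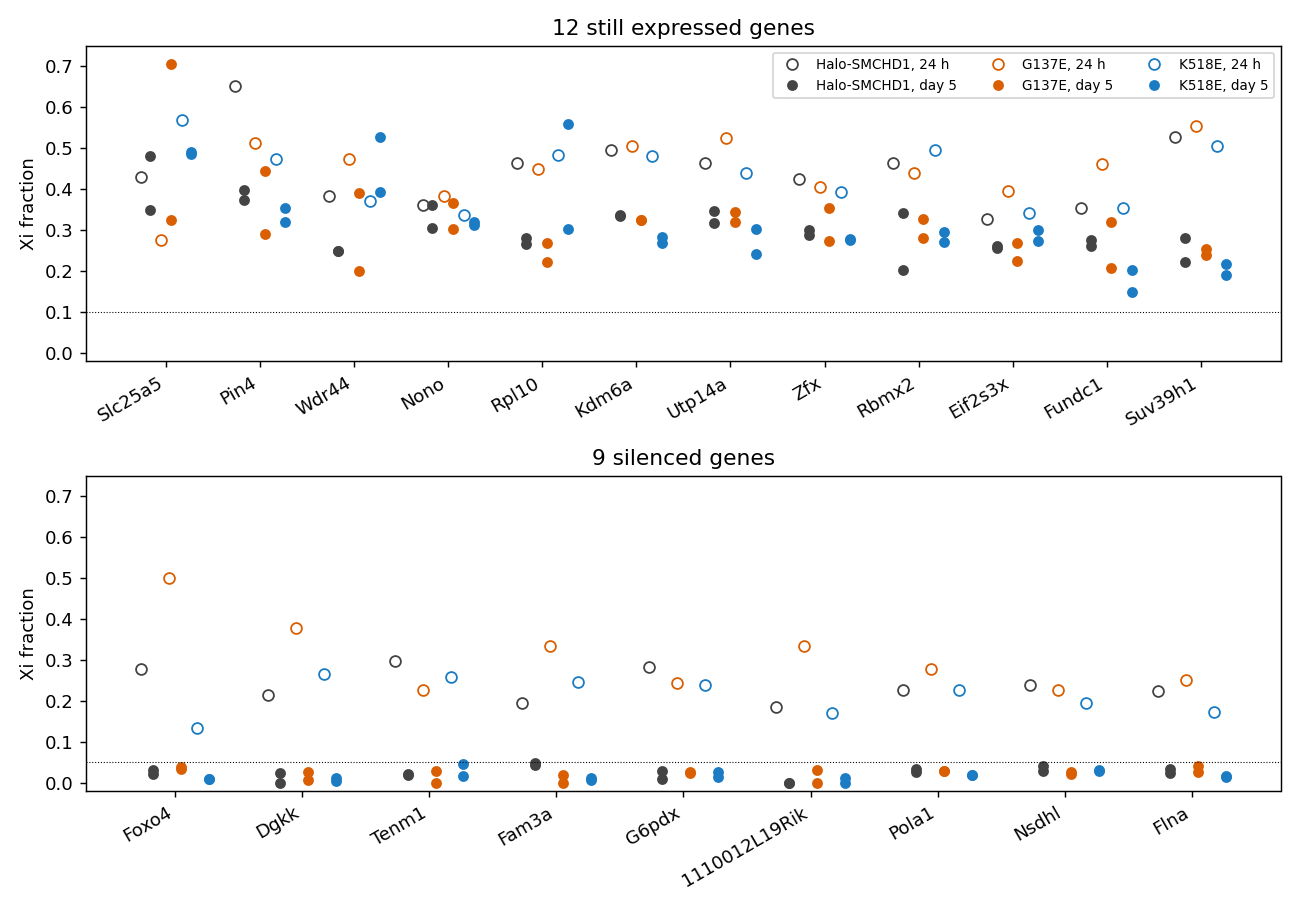
Xi fraction (vertical axis) of the 12 still expressed genes with the highest day 5 mean and 9 of the 10 silenced genes with the largest fall. Open circles are the single 24 h library of each line, filled circles its 2 day 5 libraries, and dotted lines the limits of 0.1 and 0.05. For the 9 silenced genes the filled circles lie below the open ones, whereas for Slc25a5, Wdr44, Nono and Rpl10 they overlap.

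A second fit asked which genes fell more or less than the median log2 odds of their library, called the median gene here. Over the 242 genes the median of this relative change was 0.0916 log2 odds. By limma, 57 of the 242 genes fell less (23.6% called) and 21 fell more (8.68% called). With the library mean in place of the median as the centre, the split was 50 against 38. Without the G137E library at 24 h the counts were 28 and 9, and without the K518E library at 24 h they were 30 and 10. The call also depends on the starting level, since a gene near 0 at 24 h has little room to fall. Of the 29 still expressed genes 27 fell less, the exceptions being Suv39h1 and Ftsj1, and these values share the day 5 libraries that defined the class.

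The genes that fell most against the median gene were Il1rapl1, Praf2, 1110012L19Rik, F8 and Dgkk. Il1rapl1, a synaptic adhesion protein gene, was outside the informative range, at 0.974, 0.979 and 0.974 without dox and still at 0.957, 0.879 and 0.911 at 24 h. At day 5 it was at 0.213 and 0.25 in Halo-SMCHD1, 0.231 and 0.271 in G137E, and 0.127 and 0.173 in K518E, a change of -3.04 log2 odds relative to the median gene (SE 0.33, limma adjusted p = 0.000822). This size rests on the odds scale, which stretches fractions near 1: on the log2(r + 0.01) scale the change was -0.17 and did not pass (limma adjusted p = 0.467). Praf2 was at 0.568, 0.583 and 0.327 at 24 h and between 0.0141 and 0.0625 at day 5. F8, the coagulation factor VIII gene, was also outside the informative range. It was at 0.652, 0.495 and 0.604 at 24 h and then between 0.0304 and 0.0943. Il1rapl1, Praf2 and F8 thus lay above 0.3 in all 3 lines at 24 h, and Praf2 and F8 were under 0.1 in all 6 libraries at day 5.

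The genes that fell least were Mamld1, Frmd7, Slc25a5, Xist and C330007P06Rik. Mamld1 (71050255 to 71154717) was the 1 gene called higher at day 5. It was at 0.270, 0.262 and 0.353 without dox and at 0.029, 0.0649 and 0.0382 at 24 h. The day 5 values were 0.174 and 0.110 in Halo-SMCHD1, 0.0923 and 0.149 in G137E, and 0.0558 and 0.0323 in K518E. The times overlapped in K518E (1.03 log2 odds, SE 0.41, limma adjusted p = 0.0425). The call was lost in 12 of 21 alternatives, with adjusted p from 0.0146 to 0.786. The other 3 genes besides Slc25a5 lay at an end of the scale: Xist was near 1 in all 9 libraries, as was C330007P06Rik, next to Slc25a5, and Frmd7 was listed at 0 in 8 of the 9 libraries.

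Within the X-inactivation centre, 3 of 11 listed genes were measured. Tsix, the antisense partner of Xist, was at 0.143, 0.263 and 0.130 at 24 h. Its day 5 values were 0.469 and 0.0589 in Halo-SMCHD1, 0.615 and 0.105 in G137E, and 0.042 and 0.0526 in K518E. The 2 libraries of Halo-SMCHD1 and of G137E thus lay far apart, on either side of the 24 h value, while both K518E libraries lay below it. The difference did not pass (-0.20 log2 odds, SE 1.05, limma adjusted p = 0.859). Chic1, near Xist, fell from 0.259, 0.256 and 0.254 to between 0.0328 and 0.0581.

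In all, 11 informative genes were under 0.1 in all 3 lines at 24 h. Of these, 8 were silenced by day 5. Mamld1, the gene called higher at day 5, was also among the 11 and was not silenced. Stard8, a RhoGAP gene, was at 0.0283, 0.0425 and 0.0208 at 24 h and between 0 and 0.0155 at day 5. It fell with no overlap between times. Heph, a ferroxidase, Nhsl2 and Nr0b1, an orphan nuclear receptor, were at means of 0.0228, 0.0299 and 0.0333 at 24 h, and their times overlapped. The median distance to Xist of the 11 genes was 17.3 Mb, compared with 44.9 Mb over all informative genes.

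The functional lists are described by their counts, to be read beside 92.1% of all genes called lower and, of the informative genes, 12.6% still expressed and 22.6% silenced. All 13 measured chromatin regulators were called lower, of which 3 were still expressed (Kdm6a, Suv39h1 and Ogt) and 1 silenced, and their median day 5 fraction was 0.0793, beside 0.0569 over all informative genes. Of 15 RNA processing genes 14 were called lower, 5 were still expressed and 1 silenced, with a median of 0.105. Of 9 ubiquitin pathway genes 7 were called lower and none was silenced or still expressed, with a median of 0.0687 over the 8 informative genes. Of 9 mitochondrial genes 8 were called lower and 2 were still expressed, with a median of 0.110. Against the median gene, 2 chromatin, 7 RNA processing, 2 ubiquitin and 2 mitochondrial genes fell less and 1 RNA processing gene, Dkc1, fell more, beside 23.6% and 8.68% of all genes. The lists overlap in Kdm6a, Ddx3x and Utp14a, which are also escape genes.

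Along the chromosome, genes far from Xist were higher at 24 h. The Spearman correlation of distance to Xist with the fraction, over 230 genes, was 0.360 at 24 h and 0.228 at day 5, and 0.0056 with the percentage of the 24 h fraction remaining at day 5. These correlations are descriptions across neighbouring genes. In the first 20 Mb, 3 of 47 genes were silenced and 9 still expressed at day 5. From 20 to 40 Mb, 2 of 28 were silenced and 3 still expressed, from 40 to 60 Mb 14 of 41 and 5, and from 60 to 80 Mb 14 of 59 and 3. From 80 to 100 Mb, 11 of 31 were silenced and 3 still expressed. Beyond 100 Mb, next to Xist, 8 of 24 were silenced and 6 still expressed (Igbp1, Snx12, Nono, Ogt, Pin4 and 4930519F16Rik). The share of silenced genes was thus as high from 40 to 60 Mb (34.1%) as beyond 100 Mb (33.3%). Still expressed genes had a shorter median length, at 15730 bases against 51759 for silenced genes and 26180 for all informative genes. The quartiles overlapped, at 10250 to 29294 for still expressed and 16544 to 131277 for silenced genes. Over the 230 genes, length had a Spearman correlation of -0.293 with the 24 h fraction and -0.153 with that at day 5. With the percentage of the 24 h fraction remaining at day 5 it was 0.0248.

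**Figure D4:**
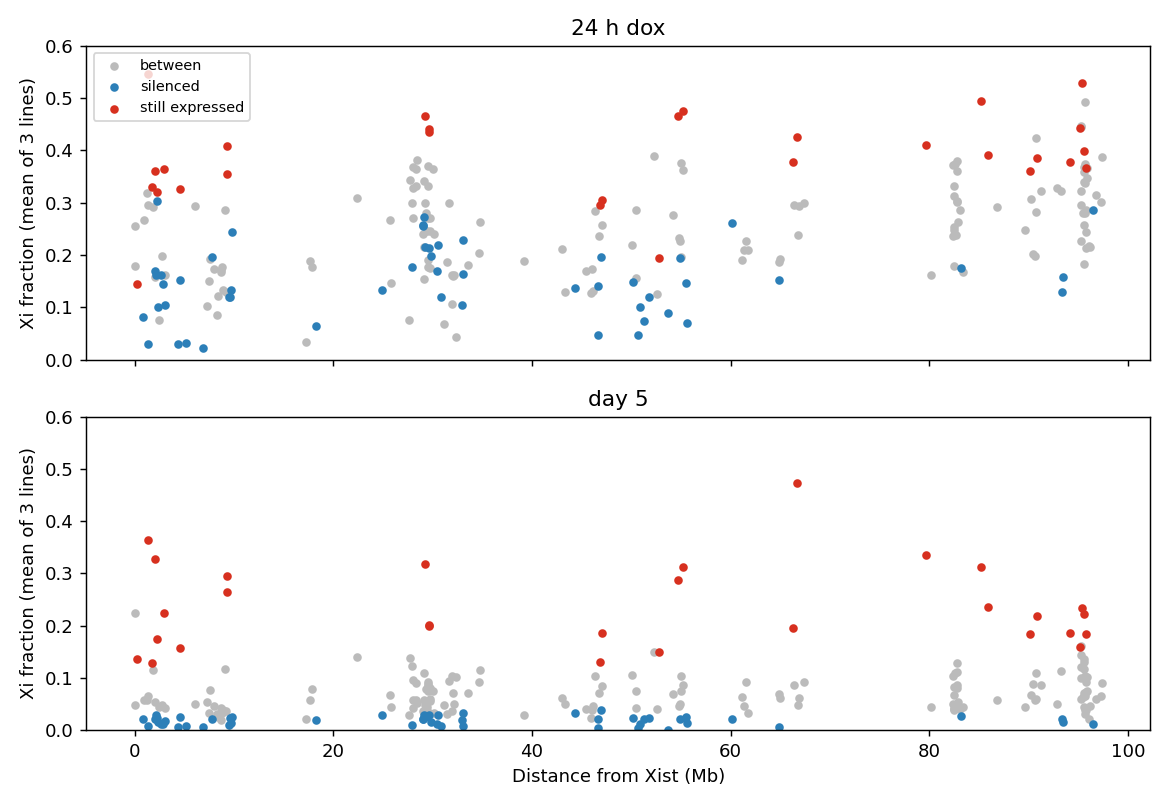
Mean Xi fraction at 24 h (upper panel) and day 5 (lower panel) of the 230 informative genes against distance from Xist in Mb, coloured by class. The 24 h fractions rise with distance (Spearman 0.360), and still expressed genes occur both near Xist and far from it.

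The lines differed in how many genes had completed silencing. In both day 5 libraries of a line, 71 informative genes were under 0.05 in Halo-SMCHD1, 64 in G137E and 123 in K518E. The genes above 0.1 numbered 50, 50 and 32. Of the 123 in K518E, 68 were also silenced in Halo-SMCHD1, which is 95.8% of the Halo-SMCHD1 genes and 55.3% of those in K518E. The percentage of the 24 h fraction left at day 5, over genes above 0.1 at 24 h, had a median of 29.9% in Halo-SMCHD1, 26.0% in G137E and 20.0% in K518E. The K518E libraries have later sample entries than the others and the labels give no batch, so line and batch cannot be told apart.

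The line differences in the fall itself were tested by limma as the change in a mutant line minus that in Halo-SMCHD1. In each of the G137E and K518E comparisons 1 of 242 genes passed (0.413% called), and in both it was Igsf1. At an unadjusted p under 0.05, 11 and 14 genes passed. Igsf1, an immunoglobulin superfamily gene (49782536 to 49788243), was listed at 0 in Halo-SMCHD1, at 0.188 in G137E and at 0.080 in K518E at 24 h, and at 0 in all 6 day 5 libraries. The difference therefore rests on 3 single libraries at 24 h, with no repeats at that time. Since the day 5 repeats had no spread, the call rests on the spread that limma borrows from other genes. It did not pass with a replicate block (limma adjusted p = 0.0638 in G137E and 0.199 in K518E).

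In the day 7 libraries, which the classes did not use, the order of the classes was kept. The median day 7 mean was 0.0133 for silenced genes, 0.0358 for those between and 0.168 for those still expressed. Of the 52 silenced genes, 42 were under 0.05 in all 8 day 7 libraries and none was above 0.1 in any. Of all 230 informative genes, 85 were under 0.05 in all 8 and 63 were above 0.1 in some. Of the 29 still expressed genes, 18 were above 0.1 in all 8, beside 18 of all 230 informative genes. Kdm6a, for example, lay between 0.227 and 0.271 and Nono between 0.221 and 0.384. Of the 149 genes between, 43 were under 0.05 in all 8.

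**Figure D5:**
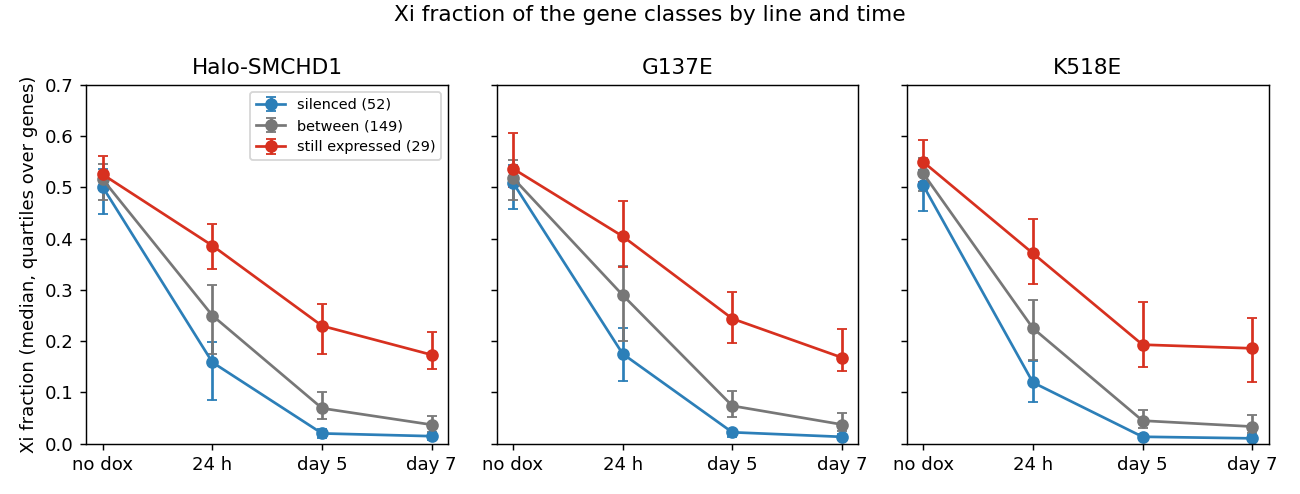
Median Xi fraction (vertical axis) with quartiles over genes for the silenced, between and still expressed classes, by time and line. The classes were defined at day 5; the still expressed class stays highest at 24 h, day 5 and day 7 in each line.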

How the data were processed

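Allelic fractions per X-linked gene were deposited by the authors for chromatin-associated RNA. Per the study's methods, rRNA reads were removed with Bowtie2, reads were aligned uniquely to N-masked mm10 with STAR, split to 129S and Cast with SNPsplit, and counted by strand with featureCounts; genes with few SNP-covering reads were left out. The fraction is Xi/(Xi+Xa), is not normalised between libraries, and its depth is unknown.

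The table of 242 genes and 20 libraries was used, 9 of them in the fits. In the second table, of 249 genes, 16 columns of other lines were not used. No 2 libraries held identical values. Fractions r were converted to log2((r + 0.01)/(1 - r + 0.01)) and fitted with limma 3.58.1 (R 4.3.3) with line as a covariate. For the relative change the library median was subtracted first. For line differences a mean per line and time was fitted. P-values were Benjamini-Hochberg adjusted over all genes, with a threshold of 0.05. Library medians were compared by exact permutation (Python 3.11.15). Scripts were tested on simulated data. Gene types came from GENCODE vM21 and matched 235 genes by symbol.

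Named genes were Xist, Tsix and all measured escape and X-inactivation centre genes. From the informative genes were added the 12 still expressed with the highest day 5 mean, the 10 silenced with the largest fall and the 5 lowest at 24 h among those under 0.1. Added from all genes were the 5 that fell most and least against the median gene, up to 3 for each line difference and up to 5 that rose. Some genes that the rule names are not reported here. Genes and lists were chosen with earlier results of these data known. Alternatives were other pseudocounts, untransformed fractions, other centres, gene sets and thresholds, a replicate block, all libraries in the fit, and leaving out each library.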

Additional observations from a re-analysis of the deposited data

Results flagged for a closer look

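Igsf1 passed the limma test of the line difference in the fall, at -4.60 log2 odds in G137E and -3.29 in K518E, both against Halo-SMCHD1. Over the alternatives the adjusted p ranged from 0.00179 to 0.727 in G137E and from 0.00407 to 0.978 in K518E. Igsf1 was listed at 0 in all 6 day 5 libraries and in the Halo-SMCHD1 library at 24 h. The test therefore compares single 24 h libraries and uses no spread between repeats of them. The day 5 repeats of Igsf1 had no spread either, so its p-values rest on the spread that limma borrows from other genes.

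For 4 named genes every day 5 library of one line lay above its 24 h library while every day 5 library of another lay below. In the limma test of each mutant line against Halo-SMCHD1 none of the 4 passed (adjusted p from 0.809 to 1), and G137E was not tested against K518E. Slc25a5 was higher by 0.238 in G137E and was lower in K518E. Wdr44 was higher by 0.0892 in K518E and lower in the other lines. Heph was higher by 0.0119 in K518E and Nr0b1 by 0.0223 in Halo-SMCHD1, both at fractions under 0.07 in all 9 libraries.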

How the results depend on the processing

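The count of genes lower at day 5 was 211 to 223 when each library was left out, and 92 in Halo-SMCHD1 and 120 in G137E fitted alone, an alternative chosen after seeing the data that has fewer samples. Genes that fell less than the median gene numbered 28 to 56 without one library, and 0, 0 and 35 in Halo-SMCHD1, G137E and K518E alone. Genes that fell more numbered 9 to 21 without one library (13 without the Halo-SMCHD1 library at 24 h, 9 without that of G137E, 10 without that of K518E and 13 without K518E day 5 replicate 2), 38 with the library mean as the centre, and 0, 0 and 13 in the lines alone; the cause was not tested. Line differences were called for 2 genes in each of G137E and K518E with a pseudocount of 0.001, and for 16 and 6 with untransformed fractions. No gene was called with all 20 libraries in the fit, where 5 and 4 genes had an unadjusted p under 0.05, nor in K518E with a pseudocount of 0.05. Without one library, 0 to 1 were called in G137E and 0 in K518E.

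The fall of the library medians was -0.192 to -0.172 without one library, where the exact permutation p could not go below 0.0556 or 0.111. With limits of 0.03 and 0.15, 19 genes were silenced and 15 still expressed. Leaving out one library gave 52 to 65 and 29 to 33, K518E alone 123 silenced, and Halo-SMCHD1 and G137E alone 50 still expressed each.

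Replicate numbers gave little sign of pairing the samples: the deviations of same-numbered day 5 libraries correlated at 0.118, 0.0776 and -0.187 between lines. Whether some libraries shared a batch was not tested. With a replicate block 224 genes were lower, 24 fell more and 58 less than the median gene, and 0 line differences were called in G137E and K518E, with 13 and 12 genes at an unadjusted p under 0.05.

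Over 78 results for named genes and 1589 alternative values, 1334 kept direction and side of the threshold, 215 lost and 17 gained the call, and 23 changed sign. Sign changes in the fall were 0.0533 for Heph without the G137E library at 24 h (-1.82 to 0.0533 without one library) and 1.08 in K518E alone, 0.69 for Nr0b1 in Halo-SMCHD1 alone, and 0.52 for Wdr44 in K518E alone. For Slc25a5 they were -0.27 without the G137E library at 24 h, -0.11 without G137E day 5 replicate 2 (-0.27 to 0.68 without one library), -0.0872 in Halo-SMCHD1 alone and -0.45 in K518E alone. For Tsix they were 0.0451 with untransformed fractions, 0.41 with Halo-SMCHD1 and G137E from the other table, 0.22 without Halo-SMCHD1 day 5 replicate 2, 0.25 without G137E day 5 replicate 2, 0.41 without the K518E library at 24 h (-0.76 to 0.41 without one library), and 0.53 and 0.29 in Halo-SMCHD1 and G137E alone. For Xist they were -0.0035 without the G137E library at 24 h (to 0.0741 without one library) and -0.0661 in Halo-SMCHD1 alone. Relative to the median gene they were -0.36 for Heph in G137E alone, -0.012 for Nhsl2 and -0.35 for Stard8 with a pseudocount of 0.001, and, for Igsf1, 0.41 with a pseudocount of 0.05, 0.58 without the G137E library at 24 h (-1.58 to 0.58 without one library) and 2.02 in Halo-SMCHD1 alone. None of these values passed limma's adjusted threshold. The call of Mamld1 as higher was lost in 12 of 21 alternatives. Without read counts, fractions near 0 could not be given a detection limit.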

Other observations

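Among genes outside the informative range, Dynlt3 was at 0.870, 0.883 and 0.842 at 24 h and between 0.735 and 0.812 at day 5, and Ube2a was at 1 in all 9 libraries. Atp6ap1, a subunit of the vacuolar ATPase, was low from the start, at 0.148, 0.123 and 0.139 without dox, and fell from a 24 h mean of 0.0752 to 0.00521 at day 5 (-2.60 log2 odds, SE 0.30, limma adjusted p = 0.00014). Mageb16 was at 0.410, 0.490 and 0.392 at 24 h and between 0.0511 and 0.127 at day 5. These genes were chosen after their values were seen.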
